A study of Mus musculus with 18 samples.

Results

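Mycn and Gata2, a pair of progenitor transcription factors, were followed in Lin-Kit+ mouse bone marrow cells carrying or lacking JAK2V617F. The deposited data hold 10335 probe sets, and ranks, shares of probe sets and adjusted p-values from limma refer to these only. Mycn and Gata2 are 2 of the 9636 genes that they name, and 1 of these probe sets measured each gene. Both were chosen by their measured signal, which had been higher in JAK2V617F+ than in JAK2V617F- cells of these arrays. That difference is therefore given as a description without a test, and the comparisons with blocking antibodies are tested.

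The cells came from Balb/c mice with a myeloproliferative neoplasm (MPN) induced by retroviral JAK2V617F, in which GFP marks the transduced cells. Marrow of several mice in each of 3 independent experiments was cultured for 16 h with IL-3 and SCF. Cultures received a blocking antibody (BA) at 10 μg/mL against TNFR2 (TNFR2 BA) or against TNFR1 (TNFR1 BA), or none (untreated). Each culture was then sorted into Lin-Kit+ GFP+ (JAK2V617F+) and Lin-Kit+ GFP- (JAK2V617F-) cells, giving 6 groups of 3 arrays. The JAK2V617F- cells thus developed in the same diseased mice and were cultured beside the JAK2V617F+ cells, and JAK2V617F was driven by a retrovirus and not by its own locus. The labels and methods give no age for the mice. The study left out the third untreated JAK2V617F+ array, so 17 arrays were used, with 2 in that group and 3 in every other. The median log2 signal was 6.05 on the array left out and 7.41 to 7.75 on the others. Kit, the receptor used in the sort, had log2 signals of 3.71 to 9.95 in JAK2V617F+ arrays and 4.19 to 9.20 in JAK2V617F- arrays (difference 0.21, limma adjusted p = 0.957). Neither GFP nor the mutation was read directly. Jak2 signals of 5.73 to 10.77 in JAK2V617F+ arrays overlapped those of 6.003 to 9.94 in JAK2V617F- arrays (difference 0.66, adjusted p = 0.763).

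Mycn encodes N-MYC, which pairs with MAX through a helix-loop-helix and leucine zipper domain, binds E-box sequences and activates genes for growth, ribosome formation and division. In mouse blood stem cells N-MYC shares functions with its relative c-MYC. Gata2 encodes a zinc finger protein that binds GATA sequences together with partners such as TAL1, LMO2 and RUNX1. It is needed for the upkeep of blood stem and progenitor cells and for mast cell formation, and gives way to GATA1 as red cells mature.

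Mycn lies on chromosome 12 (GRCm38.p6, chr12:12936093-12941836, minus strand, Entrez 18109) and was measured by probe set 1425923_at. Gata2 lies on chromosome 6 (chr6:88193891-88207032, plus strand, Entrez 14461) and was measured by probe set 1450333_a_at. The stretches of 250 bases before their RefSeq starts (GRCm38.p6) are shown because both genes were chosen for a higher signal in the same cells. The Mycn stretch is chr12:12941837-12942086 on the minus strand. Gata2 has a distal start, after chr6:88193641-88193890, and a proximal start inside the gene, after chr6:88198414-88198663. Capitals mark matches to the 6 motifs searched.
Mycn: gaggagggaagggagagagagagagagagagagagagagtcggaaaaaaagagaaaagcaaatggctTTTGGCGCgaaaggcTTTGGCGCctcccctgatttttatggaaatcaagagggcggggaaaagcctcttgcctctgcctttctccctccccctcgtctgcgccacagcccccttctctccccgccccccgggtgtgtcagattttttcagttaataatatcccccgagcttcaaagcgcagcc
Gata2, distal start: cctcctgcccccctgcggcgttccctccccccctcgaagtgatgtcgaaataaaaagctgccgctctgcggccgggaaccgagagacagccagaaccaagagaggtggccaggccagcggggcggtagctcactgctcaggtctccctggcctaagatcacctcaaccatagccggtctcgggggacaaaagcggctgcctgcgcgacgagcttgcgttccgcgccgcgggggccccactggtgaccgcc
Gata2, proximal start: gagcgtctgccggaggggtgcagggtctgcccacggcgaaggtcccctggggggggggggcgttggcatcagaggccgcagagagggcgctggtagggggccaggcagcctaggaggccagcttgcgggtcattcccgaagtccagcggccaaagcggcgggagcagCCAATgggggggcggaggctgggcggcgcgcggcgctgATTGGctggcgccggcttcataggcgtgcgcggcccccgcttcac
The motifs were searched on both strands as the letters GATAA (the GATA core), CACGTG (the E-box of MYC proteins), TTCNNNGAA (STAT), TTTGGCGC (E2F), CCAAT and TATAAA. The E2F letters occurred 2 times before Mycn, beginning at bases -183 and -168 from the start, and 0.417% of 32851 windows of this length held them. The CCAAT letters occurred 2 times before the proximal Gata2 start, at -83 and, as ATTGG on the opposite strand, at -45, and 33.8% of all windows held them. These matches did not overlap each other. GATAA (22.6% of windows), CACGTG (6.02%), TTCNNNGAA (7.02%) and TATAAA (12.4%) had no match in the 3 stretches, and the distal Gata2 stretch had none for any motif. The G and C content was 54.8% before Mycn, 67.2% before the distal and 74% before the proximal start of Gata2. The arrays do not tell the Gata2 starts apart, and a match is a description of letters and not of binding.

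Mycn signal was high in every JAK2V617F+ array and at or next to the lowest value of the whole table in every JAK2V617F- array. With TNFR2 BA its log2 signal was 11.93, 10.22 and 8.92 in JAK2V617F+ cells (replicates 1, 2 and 3) and 2.22, 2.28 and 2.22 in JAK2V617F- cells. With TNFR1 BA it was 10.74, 10.16 and 11.11 in JAK2V617F+ cells and 2.22 in all 3 arrays of JAK2V617F- cells. In untreated cultures it was 10.21 and 10.87 in JAK2V617F+ cells and 2.22 in all 3 arrays of JAK2V617F- cells. The genotypes were thus separated in each treatment, and the widest spread was among JAK2V617F+ cells with TNFR2 BA. The untreated JAK2V617F+ array that was left out read 9.26, within the range of the other JAK2V617F+ arrays.

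Over the treatments, Mycn averaged 10.52 ± 0.88 in JAK2V617F+ arrays (SD, n = 8) and 2.22 ± 0.02 in JAK2V617F- arrays (SD, n = 9). The difference was 8.30 ± 0.62 on the log2 scale (SE, limma, mean of the within-treatment differences). It was 8.12 ± 1.03 with TNFR2 BA, 8.45 ± 1.03 with TNFR1 BA and 8.33 ± 1.16 in untreated cultures (SE). By this difference Mycn ranked at position 2 of 10335 probe sets, behind the mast cell tryptase Tpsab1 (8.94). Every JAK2V617F+ array was above every JAK2V617F- array, which held for 23 probe sets in all (0.223%). These ranks describe the contrast by which Mycn was chosen.

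The low end of the Mycn difference is set by the table. In 6 of the 9 JAK2V617F- arrays Mycn stood exactly at the lowest value of the table, 2.22, and the highest of the 9 read 2.28. Between 3.01% and 5.87% of the values of an array stood at that lowest value, and the table has no detection calls. The size of the difference is therefore limited by the lowest value, and the order of JAK2V617F- arrays carries no meaning for Mycn. Probe sets under 2.5 in all 9 JAK2V617F- arrays numbered 23 (0.223%), and Mycn was the only 1 of them over 8 in all 8 JAK2V617F+ arrays. Both limits were chosen after the values were seen. Tpsb2, at 2.55 to 3.43 in JAK2V617F- and 8.33 to 11.34 in JAK2V617F+ arrays, fell outside the lower limit.

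Gata2 signal was well above the lowest value in both genotypes, and its JAK2V617F+ and JAK2V617F- arrays overlapped. With TNFR2 BA its log2 signal was 9.97, 10.87 and 11.89 in JAK2V617F+ cells and 10.16, 9.99 and 10.02 in JAK2V617F- cells. With TNFR1 BA it was 11.51, 10.51 and 11.74 in JAK2V617F+ cells and 9.99, 10.61 and 9.13 in JAK2V617F- cells. In untreated cultures it was 11.20 and 10.05 in JAK2V617F+ cells and 9.78, 9.37 and 10.51 in JAK2V617F- cells. The genotypes overlapped in each treatment, and the highest JAK2V617F+ array stood above all JAK2V617F- arrays in each. The array left out read 11.14, above every JAK2V617F- array.

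Gata2 averaged 10.97 ± 0.74 in JAK2V617F+ arrays (SD, n = 8, lowest 9.97, median 11.04, highest 11.89). It averaged 9.95 ± 0.48 in JAK2V617F- arrays (SD, n = 9, lowest 9.13, median 9.99, highest 10.61). The difference was 0.98 ± 0.36 over the treatments (SE, limma). It was 0.86 ± 0.60 with TNFR2 BA, 1.34 ± 0.60 with TNFR1 BA and 0.74 ± 0.67 in untreated cultures. Gata2 ranked at position 1337 of 10335, so 12.9% of probe sets had a difference at least as high. In a bulk sample, a larger share of cells that express a gene and more RNA per cell cannot be told apart, for either gene.

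**Figure D1:**
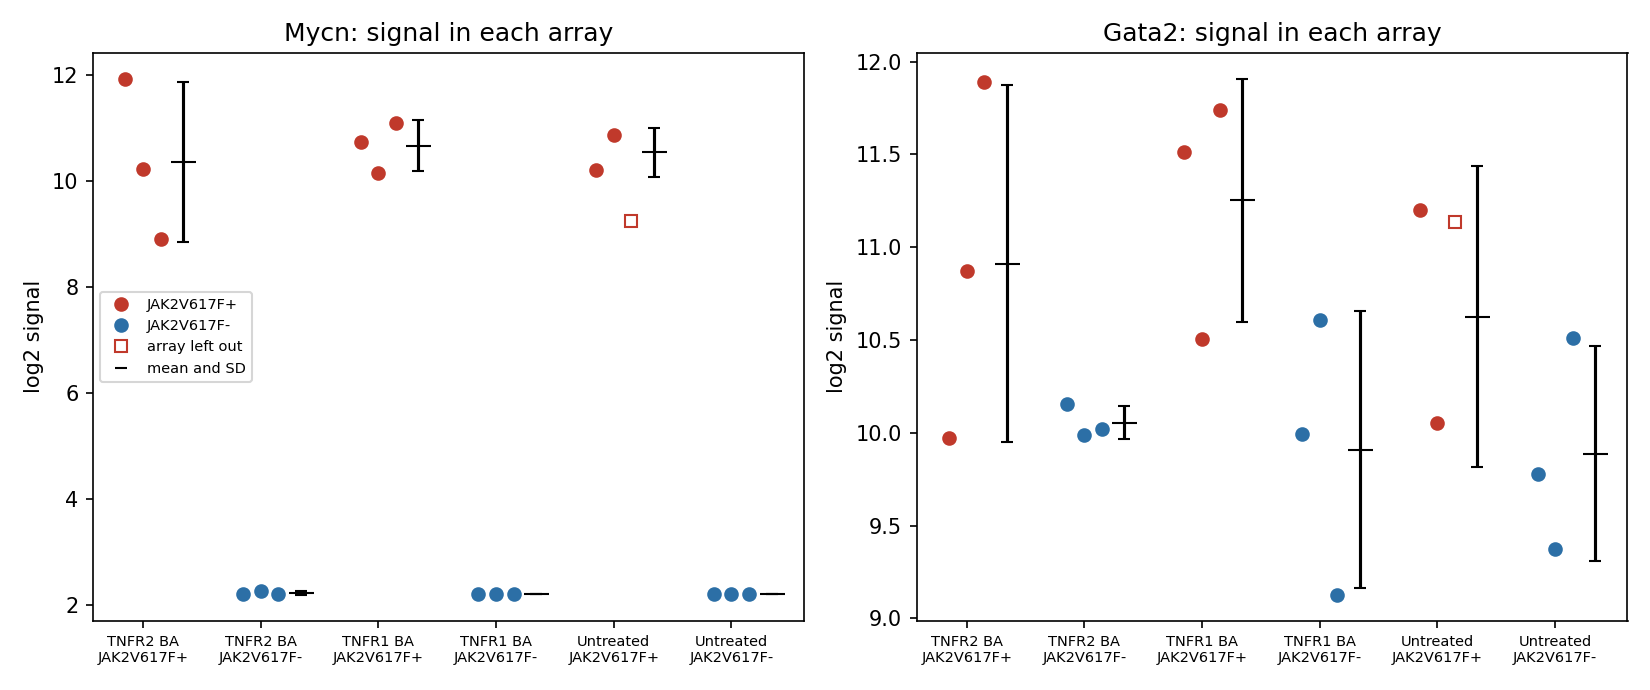
Log2 signal of Mycn (left) and Gata2 (right) on each array, by treatment and genotype, with the mean and SD of each group as a bar and the array left out as an open square. Mycn lies between 8.92 and 11.93 in JAK2V617F+ arrays and at 2.22 to 2.28 in JAK2V617F- arrays, while the Gata2 values of the genotypes overlap.

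The replicate number, read here as the experiment, gave 8 comparisons of a JAK2V617F+ array with the JAK2V617F- array of the same number and treatment. Mycn was higher in JAK2V617F+ cells in 8 of 8, by 6.70 to 9.72 on the log2 scale. Gata2 was higher in JAK2V617F+ cells in 6 of 8, with differences between -0.19 and 2.61. Its 2 lower values were replicate 1 with TNFR2 BA (-0.19) and replicate 2 with TNFR1 BA (-0.10). By replicate number the Gata2 difference averaged 0.92 in replicate 1, 0.49 in replicate 2 and 2.24 in replicate 3, the last over 2 pairs. The pairs that used the array left out differed by 7.04 for Mycn and 0.63 for Gata2.

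**Figure D2:**
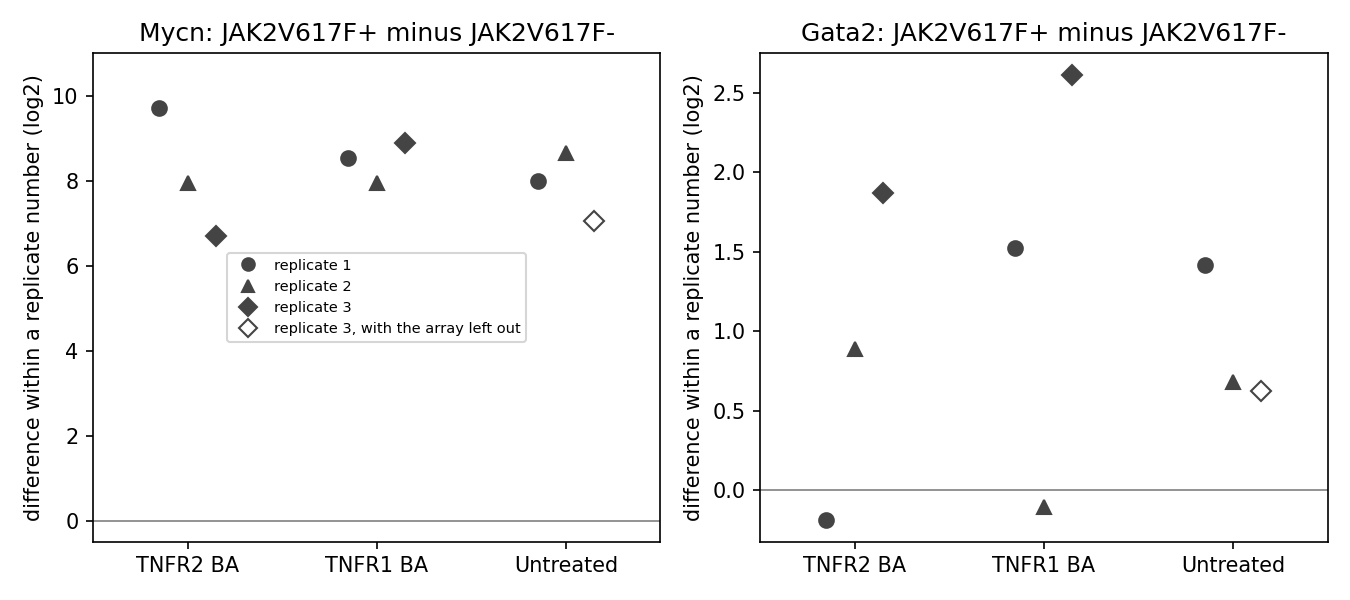
Difference between JAK2V617F+ and JAK2V617F- cells (log2) for each replicate number and treatment, for Mycn (left) and Gata2 (right), with the pair of the array left out as an open symbol. All Mycn differences lie at 6.70 or higher, and the Gata2 differences lie on both sides of 0.

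The order of group means differed between the genes. Mycn was highest in JAK2V617F+ cells with TNFR1 BA (10.67 ± 0.48, SD, n = 3), then in untreated JAK2V617F+ cells (10.54 ± 0.47, n = 2) and JAK2V617F+ cells with TNFR2 BA (10.36 ± 1.51, n = 3). These neighbours overlapped and differed by 0.18 at most, within the pooled SD of 0.69. The next group, JAK2V617F- cells with TNFR2 BA, was 8.12 lower. Gata2 was highest in JAK2V617F+ cells with TNFR1 BA (11.25 ± 0.66, n = 3), followed by JAK2V617F+ cells with TNFR2 BA (10.91 ± 0.96, n = 3) and untreated JAK2V617F+ cells (10.63 ± 0.81, n = 2). Below them came JAK2V617F- cells with TNFR2 BA (10.06 ± 0.09, n = 3), with TNFR1 BA (9.91 ± 0.74, n = 3) and untreated (9.89 ± 0.58, n = 3). No neighbouring pair of Gata2 groups differed beyond the pooled SD of 0.68, the widest gap being 0.57. The spread within groups had a median of 1.45 over all probe sets, and both genes lay below it. For Mycn that spread also counts the JAK2V617F- groups at the lowest value.

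Neither antibody shifted either gene by a difference that passed the test. These tests did not enter the choice of the genes, and limma was fitted to all probe sets with Benjamini-Hochberg adjustment and a threshold of 0.05. In JAK2V617F+ cells, TNFR2 BA minus untreated passed for 3 probe sets (0.029%) and TNFR1 BA minus untreated for 1 (0.00968%), Mycn and Gata2 not among them. At an unadjusted p under 0.05, limma gave 544 and 701 probe sets for these comparisons. Both antibodies are compared with the same 2 untreated JAK2V617F+ arrays.

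Mycn in JAK2V617F+ cells differed by -0.18 between TNFR2 BA and untreated cultures (95% interval -2.62 to 2.25, adjusted p = 1, exact permutation p = 1). For TNFR1 BA minus untreated the difference was 0.13 (interval -2.31 to 2.56, adjusted p = 1, exact permutation p = 1). TNFR2 BA minus TNFR1 BA gave -0.31 (interval -2.49 to 1.87, adjusted p = 1, exact permutation p = 0.8). The intervals are wide and leave room for a change in either direction. Their width also depended on the fit. For TNFR1 BA minus untreated the SE was 1.16 in this fit, 0.73 with variances without a trend and 0.51 on only the groups compared. For TNFR2 BA minus untreated these were 1.16, 0.73 and 0.96. Within replicate numbers, TNFR2 BA minus untreated was 1.72 in replicate 1 and -0.65 in replicate 2, and TNFR2 BA minus TNFR1 BA was 1.19, 0.06 and -2.19 in replicates 1, 2 and 3. The replicates thus differed in direction. No antibody difference is given for Mycn in JAK2V617F- cells, where it stood at the lowest value.

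Gata2 in JAK2V617F+ cells differed by 0.29 between TNFR2 BA and untreated cultures (95% interval -1.12 to 1.70, adjusted p = 1, exact permutation p = 1). For TNFR1 BA minus untreated the difference was 0.63 (interval -0.78 to 2.04, adjusted p = 0.924, exact permutation p = 0.4). It was positive in both replicate numbers that could be compared, at 0.32 in replicate 1 and 0.45 in replicate 2. The difference was 0.054 without the untreated array of replicate 2 and 1.20 without that of replicate 1. TNFR2 BA minus TNFR1 BA gave -0.34 (interval -1.60 to 0.92, adjusted p = 1, exact permutation p = 0.7), with -1.54, 0.37 and 0.15 in replicates 1, 2 and 3. Without the TNFR2 BA array of replicate 1 the difference was 0.13, so that array set the direction. The exact tests are two-sided and cannot go below 0.2 with 2 against 3 arrays or below 0.1 with 3 against 3.

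In JAK2V617F- cells, TNFR2 BA minus untreated was 0.17 for Gata2 (interval -1.09 to 1.43, adjusted p = 1, exact permutation p = 0.7). TNFR1 BA minus untreated was 0.02 (interval -1.24 to 1.28, adjusted p = 1, exact permutation p = 1). TNFR2 BA minus TNFR1 BA was 0.15 (interval -1.12 to 1.41, adjusted p = 1, exact permutation p = 0.8). Gata2 in JAK2V617F- cells with TNFR2 BA had the tightest group of all, 9.99 to 10.16. Averaged over the genotypes, Gata2 differed by 0.23 with TNFR2 BA (interval -0.72 to 1.17, adjusted p = 0.9997) and by 0.32 with TNFR1 BA (interval -0.62 to 1.27, adjusted p = 0.991). Limma called 0 of 10335 probe sets (0%) in each of these 5 comparisons, in TNFR2 BA minus TNFR1 BA of JAK2V617F+ cells and in the interactions. At an unadjusted p under 0.05 it gave 255 to 540 in them.

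The response to an antibody was also compared between genotypes by an interaction term. For Gata2, the TNFR2 BA effect was 0.12 higher in JAK2V617F+ than in JAK2V617F- cells (interval -1.77 to 2.01, adjusted p = 0.997). The TNFR1 BA effect was 0.60 higher in JAK2V617F+ cells (interval -1.29 to 2.496, adjusted p = 0.961). For Mycn the estimates were -0.21 for TNFR2 BA (interval -3.47 to 3.06, adjusted p = 0.997) and 0.13 for TNFR1 BA (interval -3.14 to 3.39, adjusted p = 0.998). Its JAK2V617F- values stand at the lowest value, so these estimates nearly repeat the JAK2V617F+ differences of -0.18 and 0.13. They cannot compare the response of Mycn between genotypes.

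**Figure D3:**
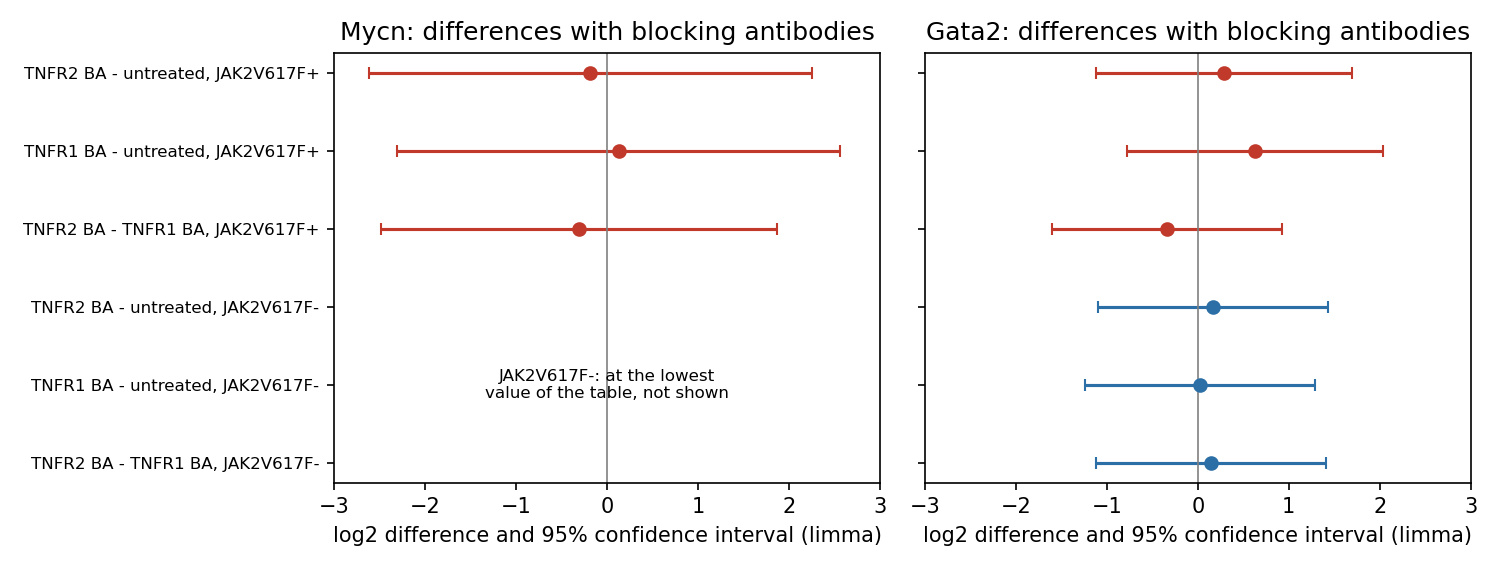
Log2 differences between cultures with blocking antibodies and between each antibody and untreated cultures, for Mycn (left) and Gata2 (right), as limma estimates (points) with 95% confidence intervals (lines). Every interval drawn spans 0, and Mycn differences in JAK2V617F- cells are not drawn because they stand at the lowest value.

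Whether Mycn and Gata2 varied together was examined within JAK2V617F+ cells. The exact permutations took the arrays as independent, although they share experiments, which limits what their p-values mean. Over the 8 JAK2V617F+ arrays Pearson's r was -0.55 (exact permutation p = 0.155, adjusted p = 0.622 over 4 relations) and Spearman's rho -0.43 (exact permutation p = 0.299, adjusted p = 0.708). Without the 2 arrays farthest from the median of Mycn, r was 0.29. The negative value thus rested on those arrays, the TNFR2 BA arrays with the highest and the lowest Mycn signal. In JAK2V617F- arrays Mycn gave no spread to compare, and no value over both genotypes is given because they form separate clusters.

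The genes whose pattern was most like Mycn over the 17 arrays, among 9635 others, were Tpsb2 (r = 0.98), Lif (0.97), Tpsab1 (0.95), Podxl (0.92) and Maob (0.92). Tpsb2 and Tpsab1 are mast cell tryptases, Lif a cytokine that signals through JAK-STAT, Podxl a surface sialomucin and Maob an amine oxidase. The lowest were Lsp1 (-0.84), a leukocyte actin-binding protein, Tbc1d4 (-0.81) and Alyref (-0.79), an mRNA export factor. Within JAK2V617F+ arrays alone, r with Mycn was 0.24 for Tpsb2, 0.53 for Lif, 0.43 for Tpsab1, -0.69 for Podxl and 0.17 for Maob. The likeness over all arrays was thus mostly the shared genotype difference. For 0.758% of genes r with Mycn was over 0.7.

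The genes most like Gata2 were Tnks2 (r = 0.82), Cd9 (0.80), Furin (0.79), Gnaz (0.77) and Acbd3 (0.76). Cd9 is a tetraspanin of platelets and stem cells, and Furin a protease that activates precursor proteins. The lowest were Cd74 (-0.83), the invariant chain of antigen presentation, Chka (-0.77), a choline kinase, and Fscn1 (-0.76), an actin-bundling protein of dendritic cells. Unlike for Mycn, r with Gata2 stayed at 0.74 to 0.93 for the 5 highest within JAK2V617F+ arrays, and Cd74 gave -0.93 there. Within JAK2V617F- arrays it was 0.74 for Tnks2, 0.48 for Cd9 and 0.04 to 0.10 for the other 3, and 0.03 for Cd74. For 0.187% of genes r with Gata2 was over 0.7. All these values are descriptions over arrays that share experiments, and the genes were picked as the extremes of many.

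Myc, the other MYC family gene measured, overlapped between the genotypes, at 12.64 to 14.71 in JAK2V617F+ and 13.04 to 13.59 in JAK2V617F- arrays. It averaged 13.51 ± 0.74 in JAK2V617F+ arrays (SD, n = 8) and 13.33 ± 0.15 in JAK2V617F- arrays (SD, n = 9), with a difference of 0.22 ± 0.24 (SE, limma adjusted p = 0.797). Max, the partner of both proteins, differed by 0.68 ± 0.43 (adjusted p = 0.605). Of the MYC family and MAX network, 10 of 13 listed genes were measured beside Mycn. Of these, 4 were higher and 6 lower in JAK2V617F+ cells, with a median difference of -0.53 against 0.00 for all probe sets, and 0 passed the test. The smallest p-values were those of Mnt (-0.81, adjusted p = 0.536) and Mxd4 (-1.34, adjusted p = 0.596), which oppose MYC at MAX, and of Mlxip (1.26, adjusted p = 0.564), a network member that acts in glucose sensing. Over all probe sets limma called 31 higher (0.3%) and 6 lower (0.0581%) in JAK2V617F+ cells.

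MYC target genes, such as Odc1, Ncl and Npm1, were split almost evenly in direction. Of 26 listed, 22 were measured, 12 of them higher and 10 lower in JAK2V617F+ cells. Their median difference was 0.06 and their range -0.86 to 0.78, and limma called 0 and had 0 at an unadjusted p under 0.05. Of 9 measured genes that govern MYC protein stability, 7 were higher and 2 lower, and 0 were called. Huwe1, a ubiquitin ligase that targets N-MYC, had the largest difference, -2.31 (adjusted p = 0.316).

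Beside Gata2, 14 of 19 listed GATA family genes and partners were measured. In JAK2V617F+ cells 10 were higher and 4 lower, with a median of 0.41, and 0 were called by limma, against 3 at an unadjusted p under 0.05. These were Tal1, Zfpm1 and Gata1. Tal1, a helix-loop-helix partner of GATA factors, had a log2 signal of 10.32 to 11.67 (median 10.93) in JAK2V617F+ arrays and 7.80 to 10.42 (median 9.22) in JAK2V617F- arrays. Its difference was 1.70 ± 0.38 (adjusted p = 0.0639). In the fit blocked by replicate number it was 1.67 and passed (adjusted p = 0.0474). Zfpm1, the GATA cofactor FOG-1, differed by 2.49 ± 0.66 (adjusted p = 0.137) and Gata1 by 1.501 ± 0.53 (adjusted p = 0.328). These 3 estimates were larger than the 0.98 of Gata2, whereas those of Lmo2 (0.10), Fli1 (0.23), Lyl1 (0.71) and Runx1 (0.75) were smaller.

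**Figure D4:**
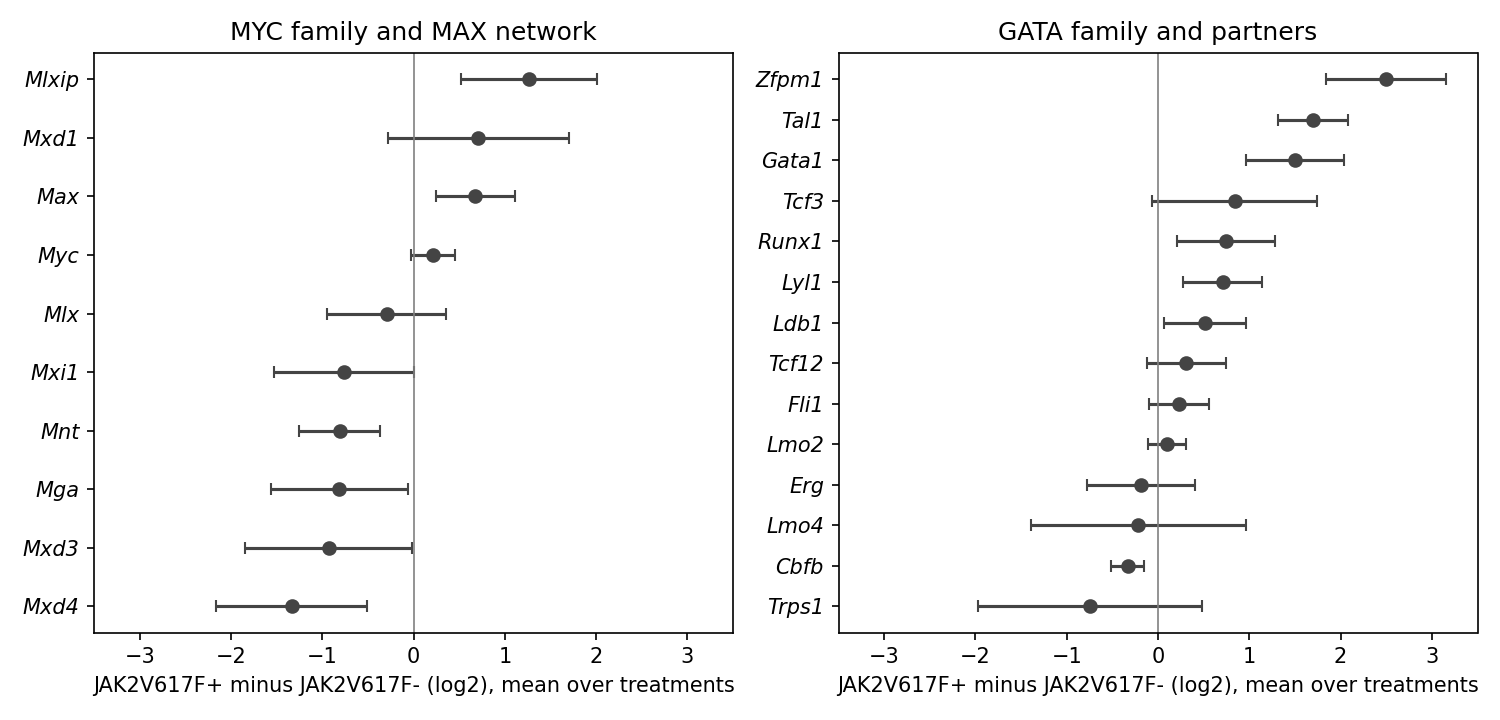
Difference between JAK2V617F+ and JAK2V617F- cells (log2, mean over treatments) with its SE from limma, for the measured genes of the MYC family and MAX network (left) and of the GATA family and its partners (right), without Mycn and Gata2. Estimates run between -1.34 and 1.26 on the left and reach 2.49 for Zfpm1 on the right, and no gene shown passed the test in this fit, while Tal1 passed with the replicate block.

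Other progenitor transcription factors split in direction, with 13 of 23 measured higher and 10 lower in JAK2V617F+ cells. The largest were 3.23 ± 0.72 for Klf1, a red cell factor (adjusted p = 0.0639), and -3.47 ± 0.93 for Hlf, a stem cell factor (adjusted p = 0.149). JAK-STAT target genes likewise gave 7 higher and 6 lower of 13, with Ccnd1 at -3.42 (adjusted p = 0.199) and Ccnd3 at 1.21 (adjusted p = 0.202). Over these 6 lists, 0 of 91 genes passed in the genotype comparison, and 12 (13.2%) had an unadjusted p under 0.05, against 10.3% of all probe sets. With the replicate number as a block, 3 passed, namely Tal1, Klf1 (3.06, adjusted p = 0.0417) and Hlf (-3.75, adjusted p = 0.0446). In the antibody comparisons 0 of the 91 genes passed. Without the first untreated JAK2V617F+ array, which leaves that group with 1 array assumed to vary like the others, Mxi1 and Gfi1 passed for both antibodies.

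Most markers of mast cells and basophils, like the averages of Mycn and Gata2, were higher in JAK2V617F+ cells. Of 12 measured of 18 listed, 11 were higher and 1 lower, with a median difference of 2.97, where 50% of all probe sets were higher. Limma called 7 of the 12, all higher, where it called 0.3% of all probe sets higher. The mean log2 signal of the list was 11.07 to 12.38 in JAK2V617F+ arrays and 6.90 to 9.22 in JAK2V617F- arrays, which did not overlap. Among defining markers, Cpa3 read 10.58 or higher in every array, whereas Tpsb2 read 8.33 to 11.34 in JAK2V617F+ and 2.55 to 3.43 in JAK2V617F- arrays. Red cell markers were higher for 11 of 11 measured (3 called), with means of 7.88 to 10.31 in JAK2V617F+ and 5.14 to 7.39 in JAK2V617F- arrays. Megakaryocyte markers were higher for 7 of 7 (0 called by limma, 2 at an unadjusted p under 0.05), with means of 4.43 to 7.78 in JAK2V617F+ and 4.18 to 5.15 in JAK2V617F- arrays. Neutrophil markers overlapped, with means of 10.06 to 13.74 in JAK2V617F+ and 11.48 to 13.78 in JAK2V617F- arrays. Of the other lists, 3 of 9 neutrophil, 4 of 10 monocyte and dendritic, 0 of 5 B cell, 0 of 2 T and NK cell and 5 of 7 stem and progenitor surface genes were higher. Limma called 0 in each, and 0 to 2 had an unadjusted p under 0.05. The marker lists were chosen with earlier results of these data known, so these counts and calls are descriptions. The part of these cell types in the Mycn and Gata2 differences was not tested.

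The relation of each gene to the mast cell list was also computed within a genotype, among the same 4 relations. For the list no adjusted p was under 0.708, and the permutations again took arrays that share experiments as independent. In JAK2V617F+ arrays the list mean gave r = 0.07 with Gata2 (exact permutation p = 0.862) and rho = 0.17 (exact permutation p = 0.703). In JAK2V617F- arrays it gave r = -0.15 with Gata2 (exact permutation p = 0.702) and rho = -0.15 (exact permutation p = 0.708). With Mycn in JAK2V617F+ arrays it gave r = 0.18 (exact permutation p = 0.687) and rho = 0.26 (exact permutation p = 0.536). Without the 2 arrays farthest from the median of the list, r was -0.47 with Gata2 and 0.85 with Mycn in JAK2V617F+ arrays and -0.33 with Gata2 in JAK2V617F- arrays. The arrays left out in JAK2V617F+ cells were replicate 2 with TNFR1 BA and replicate 3 with TNFR2 BA, which joined the highest list mean (12.38) to the lowest Mycn signal (8.92). The JAK2V617F- array with the highest list mean, 9.22, had Mycn at 2.22.

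**Figure D5:**
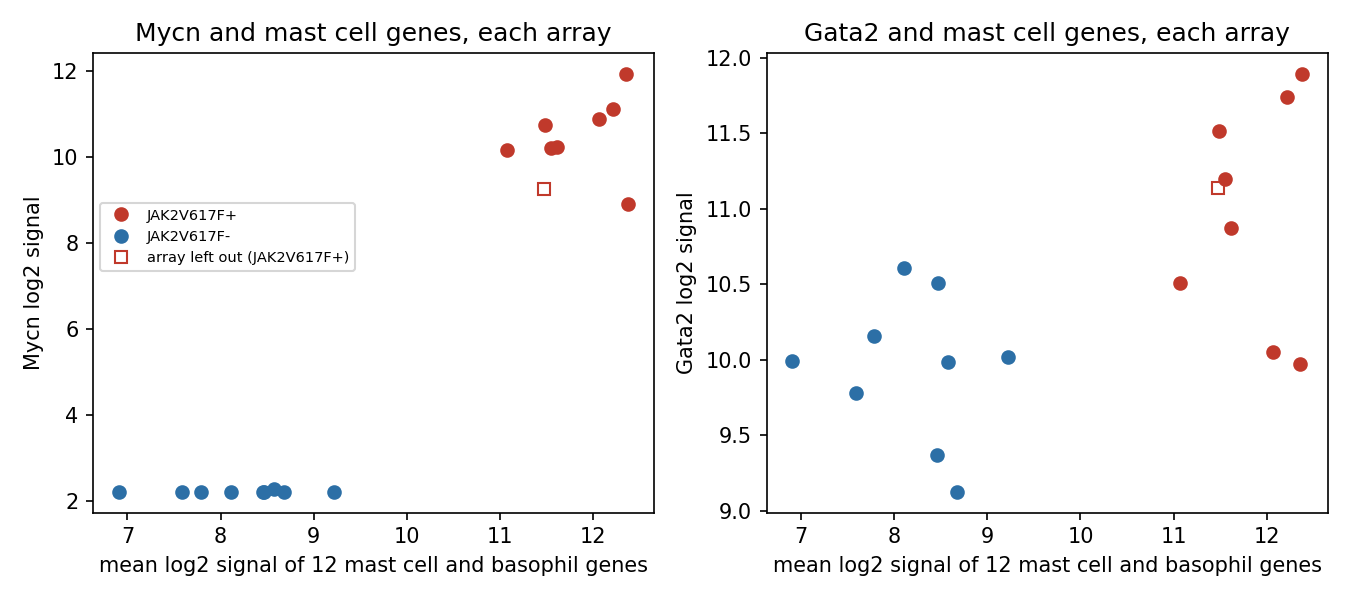
Mycn (left) and Gata2 (right) log2 signal of each array against the mean log2 signal of the 12 measured mast cell and basophil genes, by genotype, with the array left out as an open square. The list mean is at 11.07 or higher in JAK2V617F+ arrays and at 9.22 or lower in JAK2V617F- arrays, and the JAK2V617F+ array with the lowest Mycn signal, 8.92, has the highest list mean, 12.38.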

How the data were processed

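Log2 signals of each probe set on Affymetrix mouse arrays were deposited by the authors, who made them with Affymetrix Expression Console from amplified, biotin-labelled cDNA. The log2 values were used as deposited. How the authors normalized them was not given in the sources used here, and the table carries no depth, detection calls or probe sequences, so the number of arrays limits the precision. The sources used here also do not give why the deposited data hold these probe sets. Whether the array design has further ones for Mycn or Gata2 was not looked up. Of the 10335 probe sets, 9651 had a single gene symbol, 27 several and 657 none. Entrez IDs linked 9625 of these to a RefSeq table of GRCm38.p6, with 0 symbols changed.

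Limma 3.58.1 in R 4.3.3 was fitted to the means of 6 groups over 17 arrays, with trended moderated variances and Benjamini-Hochberg adjustment over all probe sets. The third untreated JAK2V617F+ array was left out as in the study. Exact permutation p-values are 2 times the smaller tail. The fit was tested on simulated data only for differences far larger than the antibody differences given here, and without values tied at a lowest value. The members Mycn and Gata2, the gene lists and the tests were chosen with earlier results of these data known. Named genes were Mycn and Gata2, list genes past the threshold or of smallest p, their direct relatives, and the 5 genes of highest and 3 of lowest correlation with each. Mycl and Gata3 were not among the genes analysed here. For Mycn, antibody differences in JAK2V617F- cells and means over genotypes had been planned and are left out because the values stand at the lowest of the table. Genes with several probe sets took the one of highest mean.

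The study describes 3 independent experiments, and the replicate number was taken to mark the experiment, which pairs arrays. Deviations from group means correlated by 0.008, 0.071 and 0.144 on average within replicates 1, 2 and 3 and by -0.033 between numbers. Of 17 arrays, 13 were closest to one of the same number. Arrays of a group bear different numbers, and subtracting their mean pushes their deviations toward opposite signs. Both measures are thus tilted toward the same number and cannot settle what the number marks. The alternatives were all 18 arrays, a replicate block, only the groups compared, quantile normalization and a filter on probe sets under 5. Further ones were variances without a trend, array weights, a t-test of the antibody comparisons paired by replicate number, and leaving arrays out. The study itself describes a paired t-test only between JAK2V617F+ and JAK2V617F- cells of the same mouse.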

Additional observations from a re-analysis of the deposited data

Results flagged for a closer look

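Mycn in JAK2V617F- cells with TNFR2 BA read 2.28 in replicate 2, and the other 8 JAK2V617F- arrays read 2.22. It was picked out because its gap to the nearest array was 0.976 of the range of the 9 arrays, above Dixon's critical value for 9 arrays. The whole range is 0.06 on the log2 scale, next to the lowest value of the table. The rule picks about 1 in 20 groups by chance where values vary freely, and 4 groups were examined. That rate does not apply here, where 6 of 9 values are tied at the lowest value and any array just off it stands apart.

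The untreated JAK2V617F+ array of replicate 3, which the comparisons leave out, read 9.257 for Mycn and 11.14 for Gata2. Both were picked out as signal in an array outside the comparisons that lay above every JAK2V617F- array, the highest of which read 2.28 for Mycn and 10.61 for Gata2. Its mean correlation with the other arrays was 0.574, and that of the arrays used was 0.675 to 0.765.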

How the results depend on the processing

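For 28 results, 762 values were computed under alternatives. Of these, 696 kept their direction and side of the threshold or moved by less than the spread, 52 turned direction, and 14 moved further. None of the turned values passed the test, and the smallest adjusted p of any antibody or interaction result for Mycn or Gata2 was 0.633. The genotype difference over treatments was 8.04 to 8.54 for Mycn and 0.70 to 1.32 for Gata2 when arrays or replicate numbers were left out. Under the other alternatives it was 8.16 to 8.31 for Mycn and 0.91 to 1.04 for Gata2. The SE of the Mycn difference was 0.62 in the main fit and 0.39 with variances without a trend. With 2 or 3 arrays a group and no detection calls, small antibody differences could not be told from 0, and the cause of the changes below was not tested. With all 18 arrays, Mycn differed by 0.24 between TNFR2 BA and untreated JAK2V617F+ cells, the TNFR2 BA interaction was 0.22 for Mycn and -0.051 for Gata2, and 1 list gene, Klf1, passed in the genotype comparison. With the replicate block the Gata2 interaction for TNFR2 BA was -0.0081 and 3 list genes passed, and the block changed no other call. With array weights that interaction was -0.035. The t-test paired by replicate number had 2 pairs for each antibody against untreated JAK2V617F+ cells. It gave 0.54 for Mycn and -0.20 for Gata2 with TNFR2 BA and -0.092 for Mycn with TNFR1 BA. Each of its comparisons had 0 calls after adjustment, against 333 to 431 before it.

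Leaving out arrays or replicate numbers gave these ranges. In JAK2V617F+ cells, TNFR2 BA minus untreated ranged over -1.30 to 0.54 for Mycn and -0.29 to 1.33 for Gata2. TNFR1 BA minus untreated ranged over -0.24 to 0.71 for Mycn and 0.054 to 1.20 for Gata2, and TNFR2 BA minus TNFR1 BA over -1.10 to 0.63 for Mycn and -0.83 to 0.26 for Gata2. Gata2 in JAK2V617F- cells ranged over -0.090 to 0.50 for TNFR2 BA minus untreated, -0.59 to 0.72 for TNFR1 BA minus untreated and -0.25 to 0.53 between the antibodies. Over both genotypes it ranged over -0.16 to 0.70 for TNFR2 BA and -0.079 to 0.61 for TNFR1 BA. The interaction ranged over -1.34 to 0.51 for Mycn and -0.70 to 1.27 for Gata2 with TNFR2 BA, and over -0.24 to 0.71 for Mycn and -0.34 to 1.18 for Gata2 with TNFR1 BA. The genotype difference with TNFR2 BA was 7.32 to 8.84 for Mycn, lowest without replicate 1, and 0.35 to 1.38 for Gata2, lowest without replicate 3. For Gata2 it was 0.71 to 2.07 with TNFR1 BA, lowest without replicate 3, and 0.11 to 1.31 in untreated cells, lowest without replicate 1. List genes that passed numbered 0 to 1 in the genotype comparison. Those were Klf1 (without the TNFR1 BA JAK2V617F- array of replicate 1, the TNFR1 BA JAK2V617F+ array of replicate 3 or the untreated JAK2V617F+ array of replicate 1), Tal1 (without the untreated JAK2V617F- array of replicate 2) and Ccnd1 (without the TNFR1 BA JAK2V617F- array of replicate 3). They numbered 0 to 2 in each antibody comparison of JAK2V617F+ cells, 2 without the untreated array of replicate 1. Fits on only the groups compared could not be made for the mean over treatments.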
